A study of Mus musculus with 8 samples.

Results

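The genes of the cytosolic ribosomal proteins were examined for accessible chromatin at their starts in medullary thymic epithelial cells (mTECs), which present self-antigens to developing T cells in the inner part of the thymus. ATAC-seq, which tags open DNA by the insertion of adapters through the enzyme Tn5, had been performed on wild-type mTECs of BL6N6 mice of 4 to 6 weeks, sorted as CD45neg, EpCAM positive and CDR1neg cells. There were 8 samples, with 2 biological replicates of each of Tspan8neg MHCIIlow, Tspan8pos MHCIIlow, Tspan8neg MHCIIhigh and Tspan8pos MHCIIhigh cells, where Tspan8 is a surface antigen used to select cells and MHC class II marks maturation. The accessible regions are 1 consensus set over all samples, and read counts per sample could not be tied to the labels, so that each result describes the mTEC samples together and no group. Whether accessibility at ribosomal protein genes differed between the 4 groups is not analysed here.

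Members were chosen by name alone, as the protein-coding genes of the mouse annotation whose symbol begins with Rpl or Rps and a number, without the kinases named Rps6k and without pseudogenes. There were 82 members of 21938 protein-coding genes. They comprised 43 core genes of the large subunit, 30 core genes of the small subunit, and 9 genes that carry such a symbol but encode a tissue-restricted or retrotransposed copy, a paralog or another protein (Rpl3l, Rpl7l1, Rpl10l, Rpl22l1, Rpl36al, Rpl39l, Rps27l, Rps27rt and Rps19bp1). The rule missed 6 ribosomal genes with other names, among them Rpsa, Rplp0, Rplp1, Rplp2 and Fau, whose product is fused to a ubiquitin-like protein. A promoter region here is an accessible region whose centre lay from 1000 bases upstream to 100 bases downstream of an annotated transcription start. The label of the cells was checked against marker genes, and 10 of 10 mTEC markers (Epcam, Krt5, Krt14, Aire, Cd80, H2-Ab1, Foxn1, Tnfrsf11a, Ltbr and Cldn4) had a promoter region, compared with 0 of 8 genes of thymocytes and other blood cells (Cd3e, Cd4, Cd8a, Ptprc, Lck, Rag1 and Itgax among them).

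Ribosomal proteins join ribosomal RNA in the nucleolus to form the small subunit, which decodes the messenger, and the large subunit, which forms peptide bonds. Their genes are active in nearly every cell and their products are needed in equal numbers, so their transcription and translation are held in step. Their messengers typically begin with a C followed by a run of pyrimidines, the terminal oligopyrimidine (TOP) tract, through which growth signals acting on mTOR control translation, and many of these genes carry small nucleolar RNAs (snoRNAs), the guides of ribosomal RNA modification, within their introns. Most also have many processed pseudogenes, which are copies of the spliced messenger elsewhere in the genome.

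To show what a TOP-like start looks like in the sequence, 6 of the members with the longest C-and-pyrimidine runs starting within 5 bases of the principal start are printed, among those with at most 30 bases of untranslated sequence in the stretch shown. They were picked for long runs, and most members do not have such a run at this place, as the counts given with the other motifs show. Each runs 5′ to 3′ from 40 bases before the start to 15 bases after it in the mm10 genome (assembly GRCm38), and capitals mark the C and the pyrimidines after it.

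Rpl22 (plus strand, chr4:152325813-152325868): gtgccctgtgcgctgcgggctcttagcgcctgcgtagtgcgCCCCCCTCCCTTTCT

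Rpl4 (plus strand, chr9:64173335-64173390): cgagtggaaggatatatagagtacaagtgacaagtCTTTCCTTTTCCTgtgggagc

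Rpl37 (plus strand, chr15:5116605-5116660): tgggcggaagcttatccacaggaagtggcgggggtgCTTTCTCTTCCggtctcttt

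Rpl37a (plus strand, chr1:72711250-72711305): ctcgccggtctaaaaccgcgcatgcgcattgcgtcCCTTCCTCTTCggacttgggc

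Rps15 (plus strand, chr10:80292413-80292468): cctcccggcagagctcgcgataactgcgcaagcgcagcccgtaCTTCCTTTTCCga

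Rps27 (minus strand, chr3:90213636-90213691): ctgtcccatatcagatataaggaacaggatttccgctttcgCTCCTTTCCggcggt

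The run spanned 15 bases in Rpl22 and 13 in Rpl4, 11 in Rpl37, Rpl37a and Rps15, and 9 in Rps27. Rpl22 is a large subunit protein that is required for the development of alpha-beta T cells, and Rpl4 lines the exit tunnel for the nascent peptide.

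Ribosomal protein genes mostly had accessible starts. A promoter region was found at 62 of the 82 members, or 75.6% (95% Wilson interval 65.3 to 83.6), against 48.6% of all protein-coding genes. A region that overlapped a start, wherever its centre lay, was found at 77 of the 82, or 93.9% (interval 86.5 to 97.4), against 56.4% of all protein-coding genes. These intervals cover counting error over genes only, genes are not replicates, and no test was made of either difference. The core genes and the 9 others were unlike in these counts. Of the 73 core genes 59 had a promoter region and 72 had a region over a start, compared with 3 and 5 of the 9 others. The large subunit held 34 of 43 core genes with a promoter region and the small subunit 25 of 30, and a start lay under a region in 42 of 43 and 30 of 30. On the X chromosome, Rpl10, Rpl39 and Rps4x had a promoter region and Rpl36a had a region over its start. Rpl10 completes the peptidyl transferase centre late in assembly, Rpl39 lies at the exit tunnel, and Rps4x is the small subunit protein whose gene escapes X inactivation in humans. Chromosome 7 held the most members, 13, of which 12 had a promoter region.

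**Figure D1:**
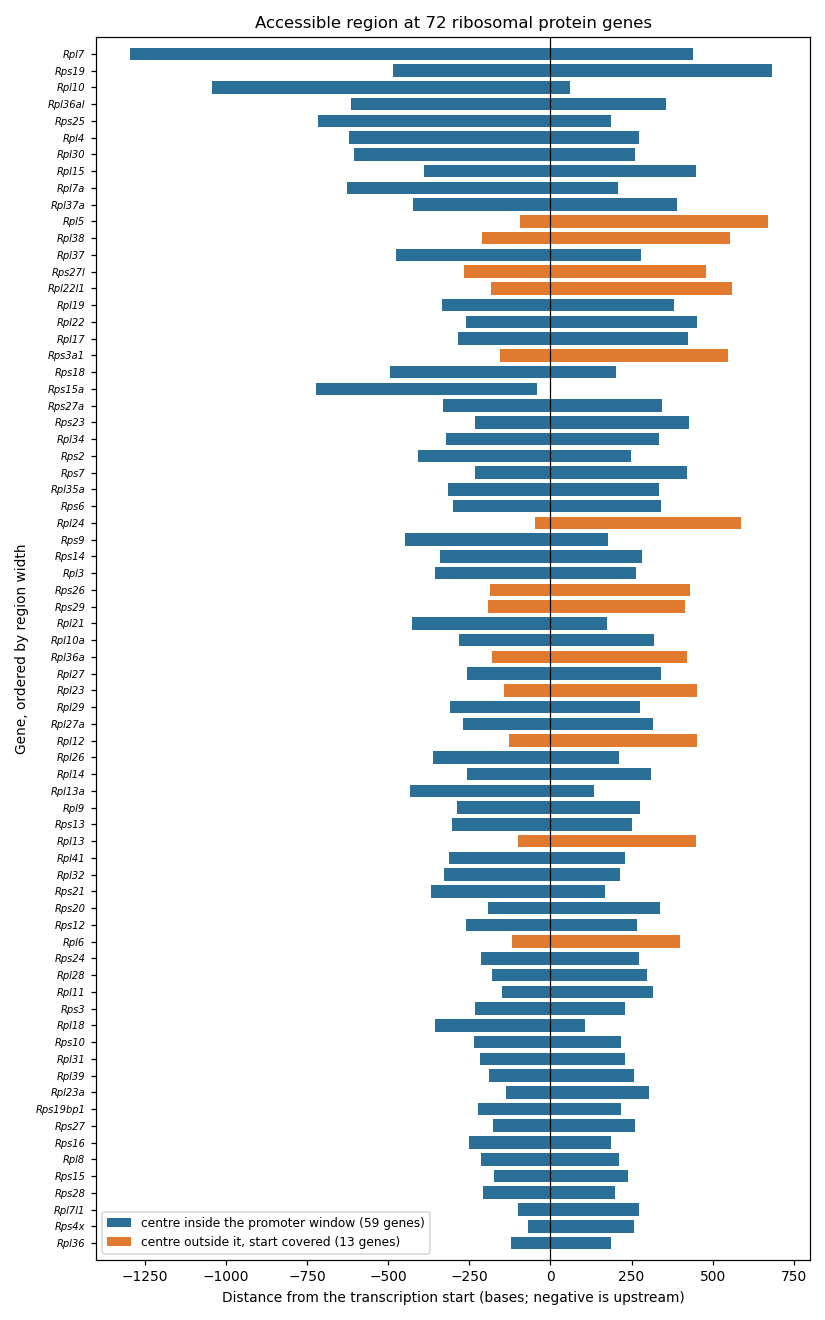
Extent of the accessible region at 72 of the 77 ribosomal protein genes with a region over a start (the widest promoter region where there are several), drawn as a bar along the distance in bases from the transcription start nearest to its centre (for promoter regions, the nearest whose window holds the centre) and ordered by width. Bars of the 13 genes whose region is centred outside the promoter window lie mainly downstream of the start, and the bars of Rps9 and Rps15a are placed by an alternative start of the gene.

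The 15 members whose region covered the start but was centred too far downstream to count as a promoter region included Rpl5, Rpl6, Rpl12, Rpl13, Rpl22l1, Rpl23, Rpl24, Rpl36a, Rpl38, Rps3a1, Rps26, Rps27l and Rps29. Of the 15, 13 are core genes. Their centres lay 105 to 288 bases downstream of the start, with a median of 161, and their widths ran from 518 to 766 bases with a median of 616. Rpl5, which binds the 5S ribosomal RNA together with Rpl11, had a region of 766 bases centred 288 bases downstream, the farthest of the 15. Rpl24, a protein at the face between the subunits, followed with a region of 636 bases centred 269 bases downstream. Rpl38, whose loss in mice disturbs the pattern of the axial skeleton, had a region of 765 bases at 171 bases downstream, and Rps26, at the messenger exit channel, had a region of 616 bases at 123 bases downstream. Around the edge of the window, members just inside had centres at 99 (Rps19), 98 (Rps23) and 96 (Rps7) bases downstream, and those just outside had centres at 107 (Rps27l), 111 (Rps29) and 120 (Rpl36a) bases downstream. The count of 62 therefore turns on where the window ends, and with a centre anywhere within 500 bases of a start it was 78.

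A start without any region over it was found at 5 members. Rpl35, a large subunit protein at the exit of the peptide tunnel, was the single core gene among them, and its nearest region, of 408 bases, was centred 483 bases downstream. The other 4 were Rpl3l, a paralog of Rpl3 made in striated muscle, Rpl10l and Rpl39l, which are made in the testis, and Rps27rt, an intronless copy of Rps27. Rpl3l had its nearest region centred upstream, at -3480 bases, Rps27rt at 4183 bases downstream, Rpl39l at 22730 bases and Rpl10l at 166038 bases. The start sequences of the 5 genes are printed for comparison with those above, on the same scale and with capitals for a C and at least 5 pyrimidines after it that begin within 5 bases of the start.

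Rpl35 (minus strand, chr2:39005609-39005664): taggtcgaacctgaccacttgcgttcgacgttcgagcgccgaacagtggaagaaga

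Rpl3l (plus strand, chr17:24727780-24727835): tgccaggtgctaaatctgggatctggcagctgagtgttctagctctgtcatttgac

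Rpl10l (minus strand, chr12:66284386-66284441): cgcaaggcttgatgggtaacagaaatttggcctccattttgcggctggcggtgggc

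Rpl39l (plus strand, chr16:10170188-10170243): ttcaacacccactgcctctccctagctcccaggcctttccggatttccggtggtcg

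Rps27rt (minus strand, chr9:114982724-114982779): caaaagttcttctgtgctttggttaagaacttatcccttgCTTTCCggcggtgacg

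Among these, Rps27rt alone has the marked run. Of the other genes outside the core, Rpl7l1 had a promoter region of 374 bases, Rps19bp1 of 443 bases and Rpl36al of 971 bases.

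The reads kept by the authors had to align at a single place, so the uniqueness of the sequence was measured at each start as the share of 31-base words within 500 bases that occur once in the genome. These words are shorter than the paired-end reads of the study. The share therefore does not give the part of the sequence where those reads could be placed. The median share was 97.7% in the 62 members with a promoter region, 90.1% in the 15 with a covered start but no promoter region, and 93.2% in the 5 with neither, against 100% in other protein-coding genes. The lowest values were 58.7% in Rps27rt, 59.0% in Rps29, 68.4% in Rpl24 and in Rpl37a, and 73.1% in Rpl10l. Rpl37a, with a value as low as that of Rpl24, had a promoter region of 815 bases, whereas Rpl3l and Rpl39l, with 99.4% and 100%, had no region over a start. The part of sequence uniqueness in the placing of these regions was not tested.

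**Figure D2:**
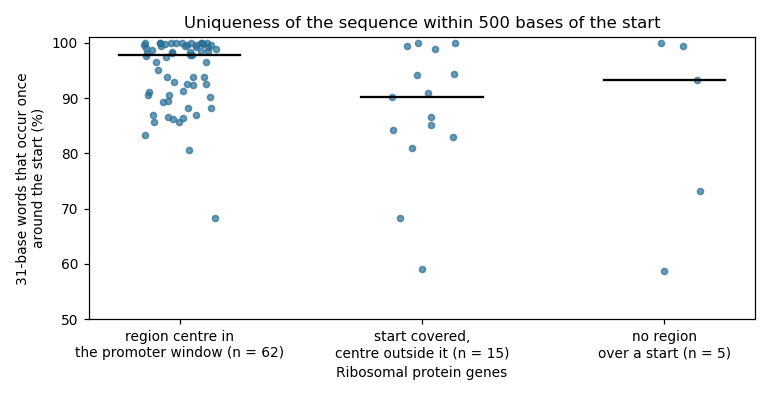
Share of 31-base words within 500 bases of the principal start that occur once in the genome (vertical axis, %), 1 point for each of the 82 ribosomal protein genes, by whether the region centre lay in the promoter window, the start was covered by a region centred outside it, or no region covered a start. Horizontal lines are medians (97.7%, 90.1% and 93.2%), and the vertical axis starts at 50%.

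Other gene classes of protein synthesis and turnover gave a frame for these counts. The starts of mitochondrial ribosomal proteins, which build the separate ribosome of the mitochondrion, lay under a region in 76 of 78 genes (97.4%), and 59 (75.6%) had a promoter region. Proteasome subunits had a region over a start in 33 of 34 genes and a promoter region in 24, cytosolic translation factors in 12 and 9 of 12, and ribosome biogenesis factors in 15 and 14 of 15. Core ribosomal protein genes, with 98.6% over a start and 80.8% with a promoter region, thus lay within the range of these classes. Of the 6 ribosomal genes that the naming rule missed, all had a region over a start and 5 had a promoter region, Rpsa, Rplp1, Rplp2 and Fau among them but not the stalk protein gene Rplp0. Ribosomal protein pseudogenes stood at the other end, with a promoter region at 6 of 290 (2.07%) and a region over a start at 3. These 6 were Rpl9-ps3, Rpl29-ps2, Rpl5-ps2, Rpl36-ps8, Rps15a-ps5 and Rps4l, with widths from 69 bases in Rpl36-ps8 to 394 bases in Rpl29-ps2, and the Rpl29-ps2 region was also a promoter region of a protein-coding gene. Reads that aligned at several places had been removed, and the part of this in the count of pseudogenes was not tested.

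**Figure D3:**
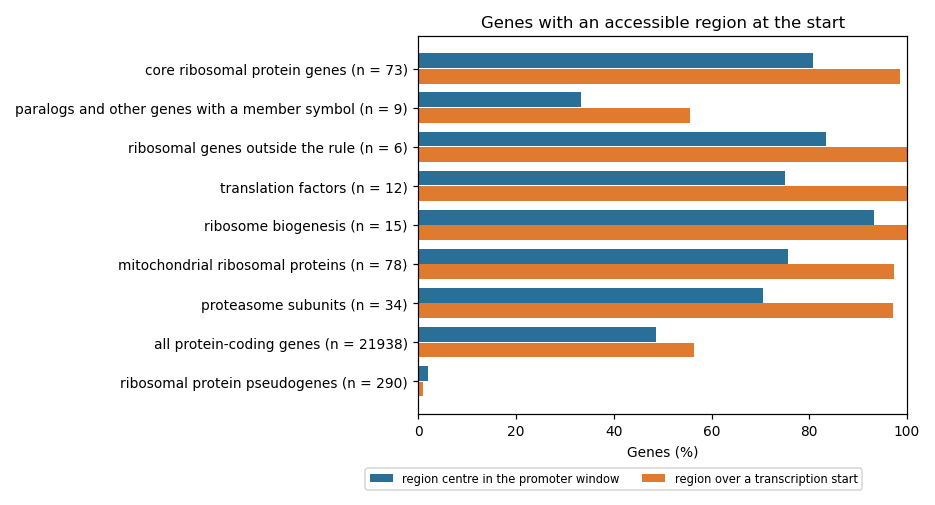
Share of genes (horizontal axis, %) with a region centred in the promoter window and with a region over a transcription start, by gene class, with the number of genes in parentheses. The core ribosomal protein genes lie at 80.8% and 98.6%, between all protein-coding genes (48.6% and 56.4%) and complete coverage, and the pseudogenes lie at 2.07% and 1.03%.

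The 62 members with a promoter region had 65 such regions. Their median width was 575 bases (quartiles 452 and 679), compared with 509 bases (quartiles 324 and 723) for 10631 promoter regions of other protein-coding genes. The spread differed as well, since 2 of the 65 regions (3.08%) measured less than 300 bases, compared with 22.7% of the other promoter regions. Both of these narrow regions were additional ones. Rpl18 had a region of 111 bases centred at -685 bases beside regions of 369 and 462 bases. There were 2 members with several promoter regions. Mitochondrial ribosomal protein genes had narrower promoter regions, with a median of 445 bases, and translation factor genes wider ones, with a median of 707 bases. Those of proteasome subunits were like the members, with a median of 554 bases and quartiles of 448 and 601. Regions under 300 bases made up 13.6% in the mitochondrial class, 8% in proteasome subunits and 0% in translation factors. The narrow spread was thus not particular to the members.

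Of the regions at a start, the narrowest included those at Rpl36 (312 bases), Rps4x (329), Rpl18 (369), Rpl7l1 (374) and Rps28 (409). The widest was at Rpl7, 1733 bases, which reached 1294 bases upstream and 438 bases downstream of the start. Among the widest were also those of Rps19 (1169 bases), the gene most often mutated in Diamond-Blackfan anaemia, Rpl10 (1103), Rpl36al (971), Rps25 (903), Rpl4 (897) and Rpl30 (865). The Rps19 region was unlike the others of this width in reaching farther downstream, 683 bases, than upstream, 485 bases, while that of Rpl10 reached 1042 bases upstream and 60 bases downstream.

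**Figure D4:**
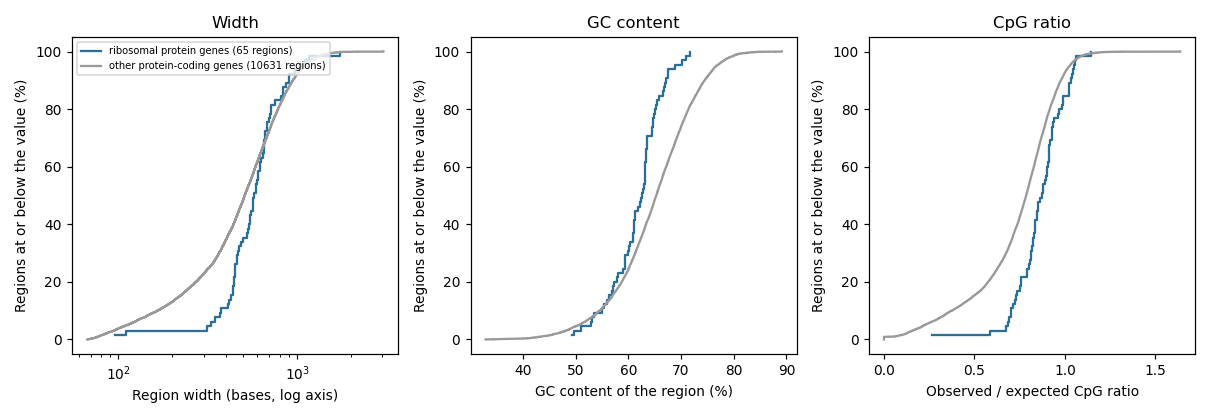
Cumulative share of promoter regions (vertical axes, %) by width in bases (log axis), GC content (%) and ratio of observed to expected CpG, for 65 regions of ribosomal protein genes and 10631 of other protein-coding genes. The member curve for width is steeper (quartiles 452 and 679 against 324 and 723), the one for GC content lies to the left (median 62.6% against 65.3%) and the one for the CpG ratio to the right (median 0.871 against 0.79).

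Promoter regions of ribosomal protein genes lay close around the start, which was not particular to them. The start was covered by 62 of 65 regions (95.4%, against 87.0% for other promoter regions), and the exceptions included the narrow region of Rpl18 and the region of Rps15a. The share was 98.3% for mitochondrial ribosomal proteins, 100% for proteasome subunits and for translation factors, and 92.9% for ribosome biogenesis. Distances were taken from the nearest start whose window held the centre. In Rps15a and Rps9 another start lay closer to the centre, which was 129 and 133 bases downstream of it, so that these genes passed through an alternative start from which the centre lay upstream, at -382 and -135. The centre lay a median of 57 bases from the nearest start, compared with 65 bases for other genes, within the limits that the window sets. This distance was 54.5 bases for mitochondrial ribosomal proteins, 58 for proteasome subunits, 80 for translation factors and 88.5 for ribosome biogenesis. With upstream negative, the median position of the centre was -6 bases in members and -33 bases in others. The window bounds these positions and the extents below as well. It left out the 15 members whose covered start had the centre 105 to 288 bases downstream. The region extended a median of 301.5 bases upstream and 262.5 bases downstream, compared with 302 and 248 bases in other genes. In 63 of 65 cases it overlapped an exon and the untranslated region of its gene. A region that covers a start overlaps the first exon by construction, and this overlap was not counted for other genes.

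Promoter regions of ribosomal protein genes were GC-rich, with a median GC content of 62.6% (quartiles 59.3 and 64.6), and this was below the median of 65.3% for other promoter regions. The median was also 62.6% for mitochondrial ribosomal proteins, with 61.9% for proteasome subunits and 67.4% for translation factors. The ratio of observed to expected CpG was higher in members than in other promoter regions, with a median of 0.871 against 0.79. The same held in a window of fixed length, from 250 bases upstream to 50 bases downstream, where members had 56.3% GC and a ratio of 0.889 against 61.7% and 0.767. A higher ratio was not particular to the members. In the regions its median was 0.927 for translation factors, 0.828 for ribosome biogenesis and 0.825 for mitochondrial ribosomal proteins. For proteasome subunits it was 0.768, below that of other promoter regions. Rpl4 (49.4%) and Rpl41 (49.7%) were the members whose region had less than 50% GC, and Rps10 had the highest value, 71.7%. The CpG ratio was at least 0.6 in 63 of 65 regions, the exceptions being the narrow region of Rpl18 (0.264) and that of Rpl10 (0.585). Most other promoter regions passed this value too, since their lower quartile was 0.63. No repeat-masked base occurred in 27 of 65 regions (41.5%), a share close to the 40.3% of other promoter regions.

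Shared promoters were frequent among the members. Of the 65 regions 15 (23.1%) were also a promoter region of another protein-coding gene, compared with 8.91% of the regions of other genes. The pairs were Rpl18 with the sphingosine kinase gene Sphk2 (2 regions), Rpl9 with Lias, which encodes lipoic acid synthase, Rps28 with the complex I subunit gene Ndufa7, Rps18 with Vps52, Rps25 with Trappc4, Rps27 with Rab13, Rps27a with Clhc1, Rpl4 with Zwilch, Rpl7 with Rdh10, Rpl7a with Med22, Rpl15 with Nkiras1, Rpl35a with Iqcg and Rpl36al with Mgat2. For Rps10 the second gene was the readthrough transcript RPS10-NUDT3, which is not a separate neighbour. The 4 widest of these shared regions, at Rpl7, Rpl36al, Rps25 and Rpl4, were among the 8 widest of all members. In a shared region the parts of both genes cannot be told apart.

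A region centred within the gene that was no promoter region occurred at 22 members, and in 15 of these it was the region over the start described above, and in Rpl35 the region 483 bases downstream. That left 6 members with a promoter region and a further region inside the gene, with 2 in each of Rpl3, Rpl11 and Rps14 and 1 in each of Rpl35a, Rps12 and Rps4x. Regions of this kind were not counted in other protein-coding genes, so these counts cannot be called high or low. Rpl11 acts with Rpl5 in binding Mdm2, and Rps14 is the gene lost in the 5q- syndrome. Within 1 to 10 kb of the start, 27 of the 73 core genes (37.0%) had no other region, compared with 52.1% of other genes with a region over a start, and from 1 to 50 kb the medians were 5 and 4 regions.

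Annotated snoRNAs lay within 28 members (34.1%), 54 in all, whereas 1.15% of other protein-coding genes held any. Rpl4 hosted 5, Rpl13a (Snord32a, Snord33, Snord34 and Snord35a) hosted 4, and Rpl5, Rpl7a, Rpl17, Rpl23a and Rps12 hosted 3 each. Of the 28 hosts 21 had a promoter region, beside 62 of all 82 members (75.6%). Among other protein-coding genes with a snoRNA, 167 of 251 had one. The 7 member hosts without one belonged to the 15 genes whose region covers the start but is centred downstream. These 7 included Rpl5, Rpl6, Rpl12, Rpl13, Rpl23 and Rps3a1.

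Motifs were counted as exact letters on either strand from 250 bases upstream to 50 bases downstream of the principal start, in the 62 members with a promoter region and in 10561 other genes with one. A match describes the letters and is not evidence of binding. A palindrome of 10 bases known from housekeeping promoters, shown in capitals in the sequences that follow, occurred in 7 of 62 member promoters (11.3%, 95% Wilson interval 5.58 to 21.5), compared with 86 of 10561 (0.814%). They included Rpl4, Rpl10a, Rpl17, Rpl26, Rps6 and Rps28. Rps6, the small subunit protein phosphorylated by S6 kinases downstream of mTOR, is printed with Rpl26 from 90 bases before to 10 bases after the start with the palindrome in capitals, because these carry it within 90 bases of the start and little untranslated sequence.

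Rps6 (minus strand, chr4:86857402-86857502): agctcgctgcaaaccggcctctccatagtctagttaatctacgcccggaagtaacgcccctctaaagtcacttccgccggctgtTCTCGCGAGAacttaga

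Rpl26 (plus strand, chr11:68901493-68901593): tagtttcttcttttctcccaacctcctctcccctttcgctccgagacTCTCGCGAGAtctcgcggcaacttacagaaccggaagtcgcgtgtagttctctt

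Counted from the first base of the start as 0, the palindrome began at -6 in Rps6 and -43 in Rpl26, and at -1 in Rps28, -6 in Rpl17, -34 in Rpl10a and -243 in Rpl4. All 7 began upstream of the start, and Rpl4 held the one match farther than 90 bases from it.

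The ETS core CCGGAAG, the common part of the sites of ETS factors, was found in 20 of 62 member promoters (32.3%, interval 22.0 to 44.6), against 17.1% of other promoters. It occurred at separate places in Rpl15, Rpl37, Rps18 and Rps21, and in Rps14 at 2 places where the matches on both strands overlap, so that each place gives 2 matches. Its 27 matches in these promoters had a median position of -27, compared with -38 in other genes. AAGATGGC, a core of YY1 sites, was found in 6 members (9.68% against 4.42%), and 5 of the 6 matches lay downstream of the start, at 16 in Rpl30, 21 in Rpl7l1, 36 in Rps15a, 37 in Rpl35a and 38 in Rpl23a, with Rps27 at -71. In other genes 47.2% of the matches lay downstream, and 6 matches are too few to set a share beside it. The E-box CACGTG, bound by Myc among others, occurred in 8 members (12.9% against 9.93%), the palindromic NRF1 site in Rpl10a and Rpl37a (3.23% against 1.75%), and the AP-1 site TGACTCA in Rpl9, Rpl22 and Rps3 (4.84% against 3.53%), all with intervals that hold the share of other genes.

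Letters common in other promoters were less frequent in those of the members. The GC box GGGCGG, the core of Sp and Klf factor sites, occurred in 33 of 62 (53.2%, interval 41.0 to 65.1) against 66.7%, and CCAAT, bound by NF-Y, in 17 (27.4%, interval 17.9 to 39.6) against 38.5%. The interval of CCAAT holds 38.5% and that of the GC box does not hold 66.7%. In the sequence of the regions themselves, however, the GC box was found in 83.9% of members and 81.8% of others, and CCAAT in 35.5% and 48.3%. The regions vary in length, with a median width of 575 bases in members and 509 in others. The part of this length in the shares was not tested. Against 3720 other genes whose window had a GC content within 5 percentage points of the member median, the share with a GC box was 55.6% and the share with CCAAT 44.6%. The interval of the GC box holds the former, and that of CCAAT does not hold the latter. A TATAAA from 40 to 15 bases upstream was present in Rps2 alone (1.61%), against 1.00% of other promoters.

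The promoter of Rpl37 is printed from 200 bases before to 15 bases after the start, as a member that holds the ETS core, the GC box and CCAAT together with a pyrimidine start. Capitals mark the matches on either strand, in order the GC box, CCAAT, the ETS core, a second GC box and the ETS core on the opposite strand.

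Rpl37 (plus strand, chr15:5116445-5116660): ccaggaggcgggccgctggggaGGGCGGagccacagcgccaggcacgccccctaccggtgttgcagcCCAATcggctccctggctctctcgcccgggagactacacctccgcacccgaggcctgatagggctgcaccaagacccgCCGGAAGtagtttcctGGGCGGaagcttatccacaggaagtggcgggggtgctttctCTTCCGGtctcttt

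A C followed by at least 5 pyrimidines, beginning within 5 bases of the principal start, was present in 20 of the 62 members (32.3%, interval 22.0 to 44.6) against 9.90% of other genes. The base at the start itself was C in 23 of 62 members (37.1%) and in 17.2% of others, whereas G stood there in 32.3% and 46.6%. Because an annotated start can lie some way from the base used in a cell, the search was widened, with alternatives chosen after the first values had been seen. Within 5 bases of any annotated start of the gene the run was present in 34 of 62 members (54.8% against 18.5%). From 5 bases before to 50 bases after the principal start it was present in 45 (72.6% against 35.1%), and with a run of 8 pyrimidines after the C in 34 (54.8% against 10.0%). Of the 9 genes outside the core, Rps27rt alone had the run within 5 bases of its start, compared with 21 of the 73 core genes.

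**Figure D5:**
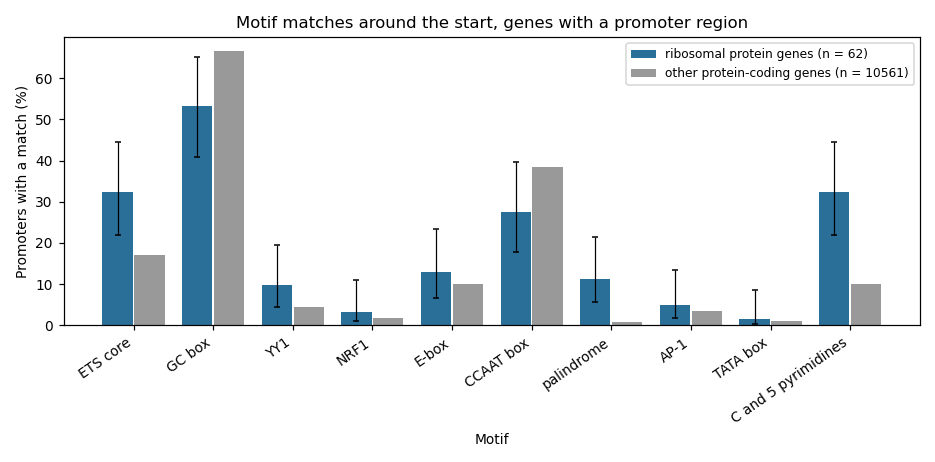
Share of promoters with a match to each motif (vertical axis, %) in 62 ribosomal protein genes and 10561 other protein-coding genes with a promoter region, with error bars for the 95% Wilson interval of the member share. The palindrome (11.3% against 0.814%), the ETS core (32.3% against 17.1%) and the start with a C and 5 pyrimidines (32.3% against 9.90%) are more frequent in members. The GC box (53.2% against 66.7%) is less frequent in this window though not in the regions themselves (83.9% against 81.8%), which vary in length.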

How the data were processed

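ATAC-seq had been performed on 8 samples of sorted mTECs. Following the study's methods, the authors aligned reads to mm10 with Bowtie2. They removed mitochondrial, multimapping and poorly aligned reads with SAMtools, and PCR duplicates with Picard. MACS2 was then run in its broad mode and the resulting peaks were joined with bedtools. Per the file headers, featureCounts 2.0.3 then counted reads over the 57124 merged regions. The sources used here do not say if MACS2 was run on single or combined samples. Of the deposited values, the start, end and width of each region in bases were used, and these belong to no sample. The table's 8 count columns match no label and were not used, so the planned tests between groups were not run, and depth per sample is not analysed here. Each region may stem from any of the samples, and both peak calling and merging set how wide it is.

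The regions were joined to the basic set of GENCODE M21 on chromosomes 1 to 19, X and Y of GRCm38. The principal start of a gene is that of its best-ranked protein-coding transcript by APPRIS and support level. Genes were named by rule: members without a promoter region or with several, the 8 widest and 8 narrowest regions, members on X, paralogs, and the listed ribosomal genes outside the rule. Other members are named with the count or feature they belong to, after their values were seen. The members and lists were chosen with earlier results of these data known, and therefore no set test or p-value is given. Shares have 95% Wilson intervals. Window assignment and word counting were tested on simulated data. The scripts used numba 0.67.0, matplotlib 3.10.9, pandas 2.3.3 and numpy 2.4.6 under Python 3.11.15, and scipy 1.17.1. Some genes and sequences are not reported here by name.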

Additional observations from a re-analysis of the deposited data

How the results depend on the processing

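Of 45 alternative values for 14 results, 39 kept their direction and stayed within 1.5 times a main count or within the 95% interval of a main median or share. The number of ribosomal protein genes with a promoter region was 76 with the comprehensive annotation, 78 with a centre within 500 bases of a start, 77 with any overlap and 62 with regions of at least 200 bases, and the median width ran from 586 to 600 bases. The difference in share between members and other genes turned its direction for the GC box in the sequence of the regions themselves, which vary in length. It went from -13.4 percentage points to 2.06 there, and narrowed to -2.39 against genes of like GC content. With the start nearest to the region centre it turned for NRF1 (from 1.47 to -0.24) and AP-1 (from 1.31 to -0.28), each on 1 to 3 matches. The pyrimidine start differed by 22.4 points at the principal start, by 36.4 over any start, by 37.5 from 5 bases before to 50 after, and by 44.8 there with 8 pyrimidines. The nearest-start and these wider searches were chosen after seeing the data, and the cause of these changes was not tested.

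No paired analysis was possible because no column of read counts carries the name of a sample. For the same reason the replicate block, DESeq2, the other normalization, the fit without a filter and the fits without each replicate were not run. The region set holds no depth, so that the absence of a region at a start is no measure of its reads, and width and position carry no error between samples.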

Other observations

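Promoter regions of the ribosome biogenesis genes set beside the members spanned a wide range of widths. Fbl, which encodes the rRNA methyltransferase fibrillarin, and Nop10, a subunit of the pseudouridine synthase complex, had promoter regions of 85 and 143 bases, whereas Ncl (nucleolin), Wdr12 and Rrp9 had regions of 1122, 1117 and 1205 bases. Of the 14 promoter regions of this list 13 covered a start, while all 15 genes had a region over a start. A promoter region of this list therefore need not be the region at the start, and which of the 14 did not cover one is not given here. Gar1, the partner of Nop10, was the gene of this list without a promoter region, and a region did overlap its start. Among the translation factors, Eef1a1, which delivers aminoacyl-tRNA to the ribosome, Eif3e and Eif4b had a region over the start without a promoter region, as the 15 ribosomal protein genes did, and the widest regions were those of Eif4a2 (1147 bases) and Tpt1 (1048 bases). These lists were chosen with earlier results of these data known, and no test was made of them.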
